A study of Arabidopsis thaliana with 9 samples.

Results

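The overexpressing line PP2-A5oe was set directly against the mutant line pp2-a5, gene by gene, in rosettes of Arabidopsis thaliana. The comparison took the 6 libraries of these lines, out of 9 in the series, and every locus of the deposited count table, with the counts of a locus listed more than once added up. PP2-A5oe overexpresses PP2-A5 in 3 replicate libraries, pp2-a5 carries a mutation of that gene in 3, and 3 further libraries came from Col-0. All plants had the treatment label Control and an age of 3 weeks, and the labels name the rosette as tissue while the extraction protocol speaks of seedlings. Col-0 entered the estimate of the spread and is given as a level beside the lines, but it had no place in the contrast. The labels name 1 overexpressing and 1 mutant line, so an effect of the gene cannot be told apart from any other difference between these plants. How the biological replicates were grown is not described, so a p-value here reflects nothing beyond the spread of these samples, which may be technical. The PP2-A5 transcript was not analysed here, so the genotypes were not checked against the level of the targeted gene.

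PP2-A5 belongs to the phloem protein 2 lectins and joins a TIR domain, a module of plant immune receptors, to a carbohydrate-binding lectin domain. In Arabidopsis leaves, defence against chewing or sucking herbivores and microbes is carried by the hormones jasmonate, ethylene and salicylic acid, by glucosinolates, and by peptides and enzymes released into the wall. Mechanical, calcium and cold signals induce a separate set of fast, short-lived transcripts, among them those of ERF, CBF and C2H2 zinc finger transcription factors.

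Library totals ranged from 5408847 to 6196722 counts over the 9 libraries, and 13975 of 22155 loci had enough counts to be tested. A principal component analysis kept the 3 groups apart on its first component (58% of the variance) and its second (28.7%). Mitochondrial transcripts made up 0.0741% to 0.0878% of the counts, except in PP2-A5oe replicate 2 (0.132%) and Col-0 replicate 3 (0.178%). The tissue is bulk, so fewer cells of a type and less RNA per cell cannot be told apart. All levels below are CPM (counts scaled to a common library size), and they can be compared between samples of a gene but not between genes. All fold changes are log2 of PP2-A5oe over pp2-a5 with their standard error, and all adjusted p-values are from edgeR's quasi-likelihood test with Benjamini-Hochberg adjustment over all tested genes.

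The lines differed in 1769 genes at an adjusted p under 0.05, which was 12.7% of the genes tested. Of these, 1007 were higher in PP2-A5oe (7.21%) and 762 were lower (5.45%). Most differences were small: the median called gene was 1.4-fold higher or 1.49-fold lower. At least 2-fold differences were found in 206 genes that were higher (1.47%) and 189 that were lower (1.35%). The large differences were mostly rises, with 25 genes at least 8-fold higher and 1 at least 8-fold lower. The median log2 fold change over all tested genes was -0.00209. In 3968 genes (28.4%) the 3 values of one line all lay above the 3 of the other, and 1742 of the called genes were among them. Several transcripts are annotated for 448 of the called genes and an overlapping gene for 420. Values of such genes are less certain, because neither the handling of transcripts nor a strand setting is stated. Some genes with several annotated transcripts were missing from the deposited counts or had almost none, among them RBCS1A, RCA, VSP2, BAK1 and EDS1. Shares of list members below cover tested genes only and leave these out.

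**Figure D1:**
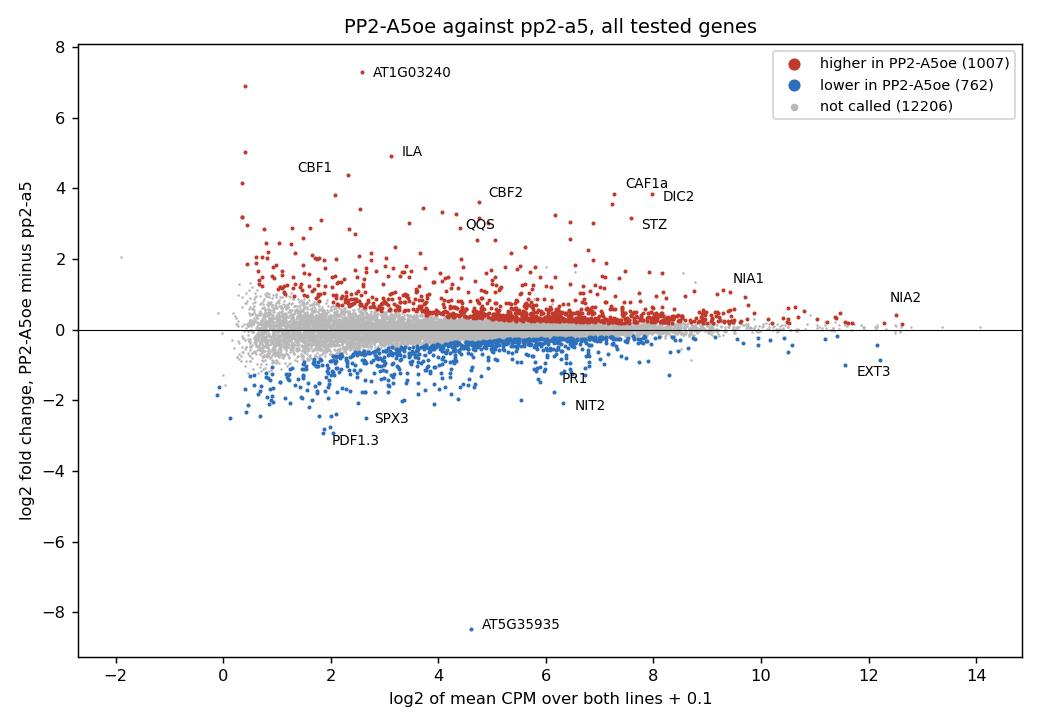
Each point is 1 of the 13975 tested genes, with its mean level on the x axis and its log2 fold change, PP2-A5oe over pp2-a5, on the y axis. The called genes above 0 reach larger changes than those below, apart from 1 pseudogene at -8.47.

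A deadenylase and a mitochondrial carrier were among the largest rises. CAF1a (AT3G44260, chr3:15952008-15953346), a deadenylase that shortens the poly(A) tails of mRNAs, stood at 293, 303 and 267 CPM in PP2-A5oe, against 20.1, 21.2 and 18.4 CPM in pp2-a5. The mitochondrial dicarboxylate carrier DIC2 (AT4G24570, chr4:12686459-12687650) stood at 471, 475 and 461 CPM in PP2-A5oe, against 35.7, 34.2 and 28.5 CPM in pp2-a5. All PP2-A5oe replicates of both genes lay more than 10-fold above all pp2-a5 replicates, while Col-0 averaged 17.4 ± 3.42 CPM for CAF1a and 16.9 ± 2.88 CPM for DIC2 (SD, n = 3). Their log2 fold changes were 3.85 ± 0.09 (adjusted p = 3.46e-26) and 3.84 ± 0.08 (adjusted p = 5.71e-27).

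AT4G29780 had 289, 277 and 261 CPM in PP2-A5oe, against 26.9, 20.0 and 23.0 CPM in pp2-a5, and rose by 3.56 ± 0.09 on the log2 scale (adjusted p = 1.42e-25). Another 5 of the largest rises follow. AT5G21960, an AP2/ERF-type factor, averaged 7.75 ± 0.975 CPM in PP2-A5oe, against 0.534 ± 0.231 CPM in pp2-a5 (SD, n = 3 each). The small peptide gene RTFL12 rose by 3.43 ± 0.20 and AT3G10930 by 3.41 ± 0.27 on the log2 scale. GATL10, a galacturonosyltransferase-like gene that overlaps a neighbour, rose by 3.32 ± 0.18. ILA, a HEAT-repeat protein of translation control, has 3 annotated transcripts and stood at 16.6, 15.9 and 17.6 CPM in PP2-A5oe, against 0.487, 0.496 and 0.625 CPM in pp2-a5.

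The largest rise of all was in AT1G03240 (chr1:792222-793060), which held 204 counts over the PP2-A5oe libraries and 1 count over the pp2-a5 libraries. The ratio per library total was 219, with an exact 95% counting interval of 38.8 to 8680. Col-0 had no count of it. The orphan gene QQS, known for its effect on carbon and nitrogen allocation, has 3 annotated transcripts and showed another order of groups. It had 35.8, 33.7 and 39.2 CPM in PP2-A5oe, against 3.73, 3.97 and 3.6 CPM in pp2-a5, and Col-0 at 24.5 ± 2.95 CPM (SD, n = 3) lay nearer to PP2-A5oe.

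The largest fall was in a pseudogene, AT5G35935 (chr5:14083388-14089891), with 2 counts in PP2-A5oe and 899 in pp2-a5. The ratio of pp2-a5 over PP2-A5oe was 419, with a counting interval of 116 to 3470. Its level was 44.3, 51.4 and 49.2 CPM in pp2-a5 and 0.335 ± 0.148 CPM in Col-0 (SD, n = 3), so the high level was seen in the mutant line and in neither of the others. The next falls were smaller. The plant defensin PDF1.3 had 0.497, 0.721 and 1.21 CPM in PP2-A5oe, against 6.0, 6.61 and 6.1 CPM in pp2-a5. ELI3-2, an elicitor-activated alcohol dehydrogenase, fell by 2.92 ± 0.31 on the log2 scale, and the polygalacturonase PGAZAT, known from abscission zones, by 2.75 ± 0.32. AT5G49560 fell by 2.82 ± 0.36, the organic cation transporter OCT1 by 2.43 ± 0.29, the triterpene synthase LUP5 by 2.43 ± 0.34, and the glutathione transferase GSTU11 by 2.38 ± 0.31. LUP5 has 4 annotated transcripts and OCT1 overlaps a neighbour.

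NIT2 was also lower in PP2-A5oe. This nitrilase, which hydrolyses nitriles such as those released from glucosinolates, stood at 31.5, 31.4 and 29.2 CPM in PP2-A5oe, against 139, 128 and 121 CPM in pp2-a5. The groups lay about 4-fold apart without overlap, with Col-0 between them at 69.2 ± 9.64 CPM (SD, n = 3), and the log2 fold change was -2.08 ± 0.09 (adjusted p = 1.77e-18). NIT1, NIT2 and NIT3 are close copies, so reads may be split between them.

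**Figure D2:**
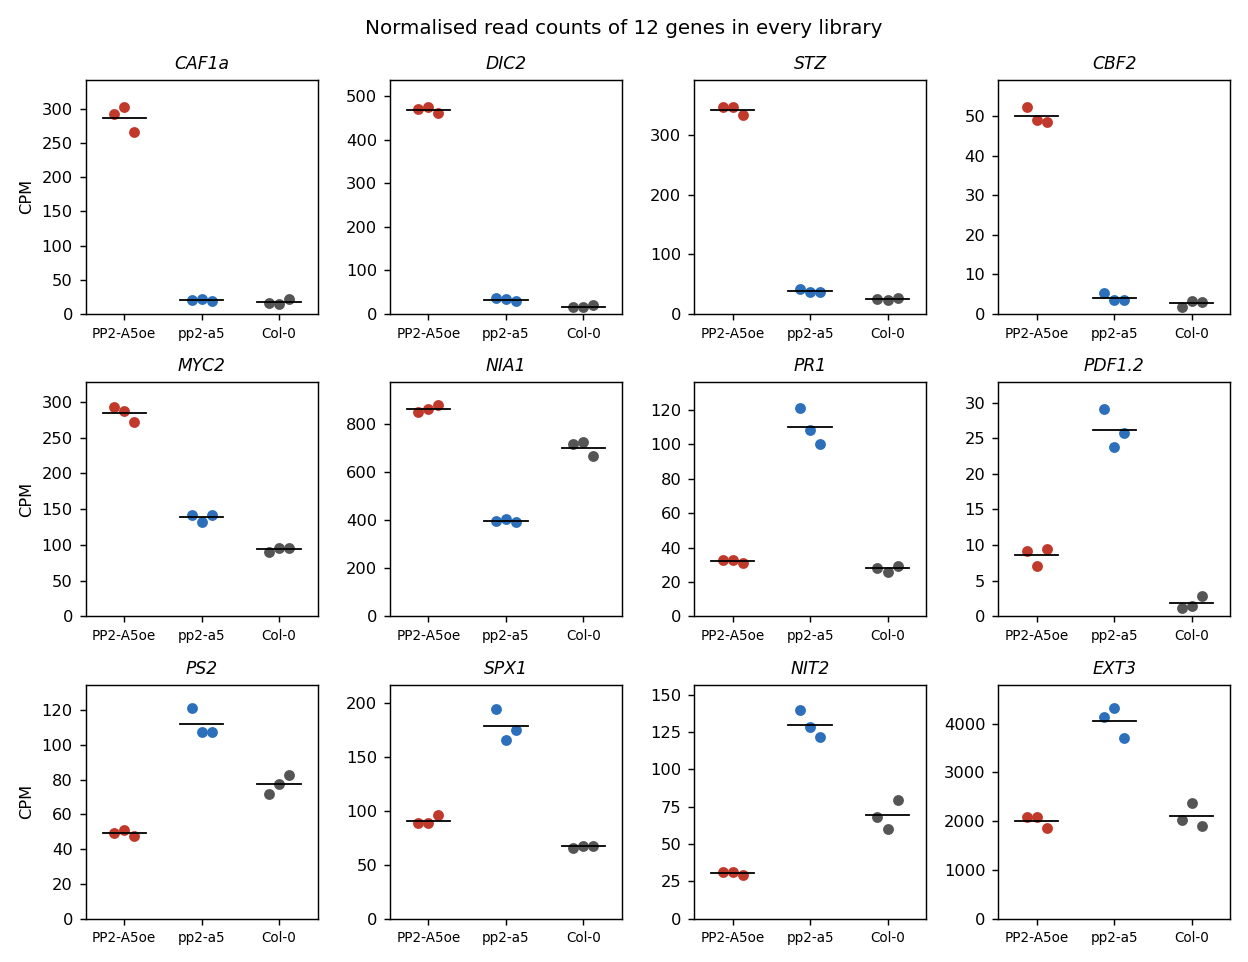
Each of the 12 panels is 1 gene, with its CPM on the y axis and a point for each of the 3 replicates of PP2-A5oe, pp2-a5 and Col-0, from left to right; horizontal bars are means. In no panel do the PP2-A5oe and pp2-a5 points overlap.

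The gene lists described next differ widely in the share of members called. The lists of CBF and DREB regulators, ERF factors and touch genes had the highest medians together with extensins, and the lists of jasmonate-ethylene outputs, wall-associated kinases and phosphate starvation genes had the lowest. Counts of members are to be read against the 7.21% of tested genes called higher and the 5.45% called lower. Some genes stand on several lists, among them WAK1, UGT76B1, NATA1, ORA59 and GSTF7, so the counts of different lists are not independent. Of each list the called members with the smallest adjusted p are given, and the further members named were chosen after their values were seen.

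**Figure D3:**
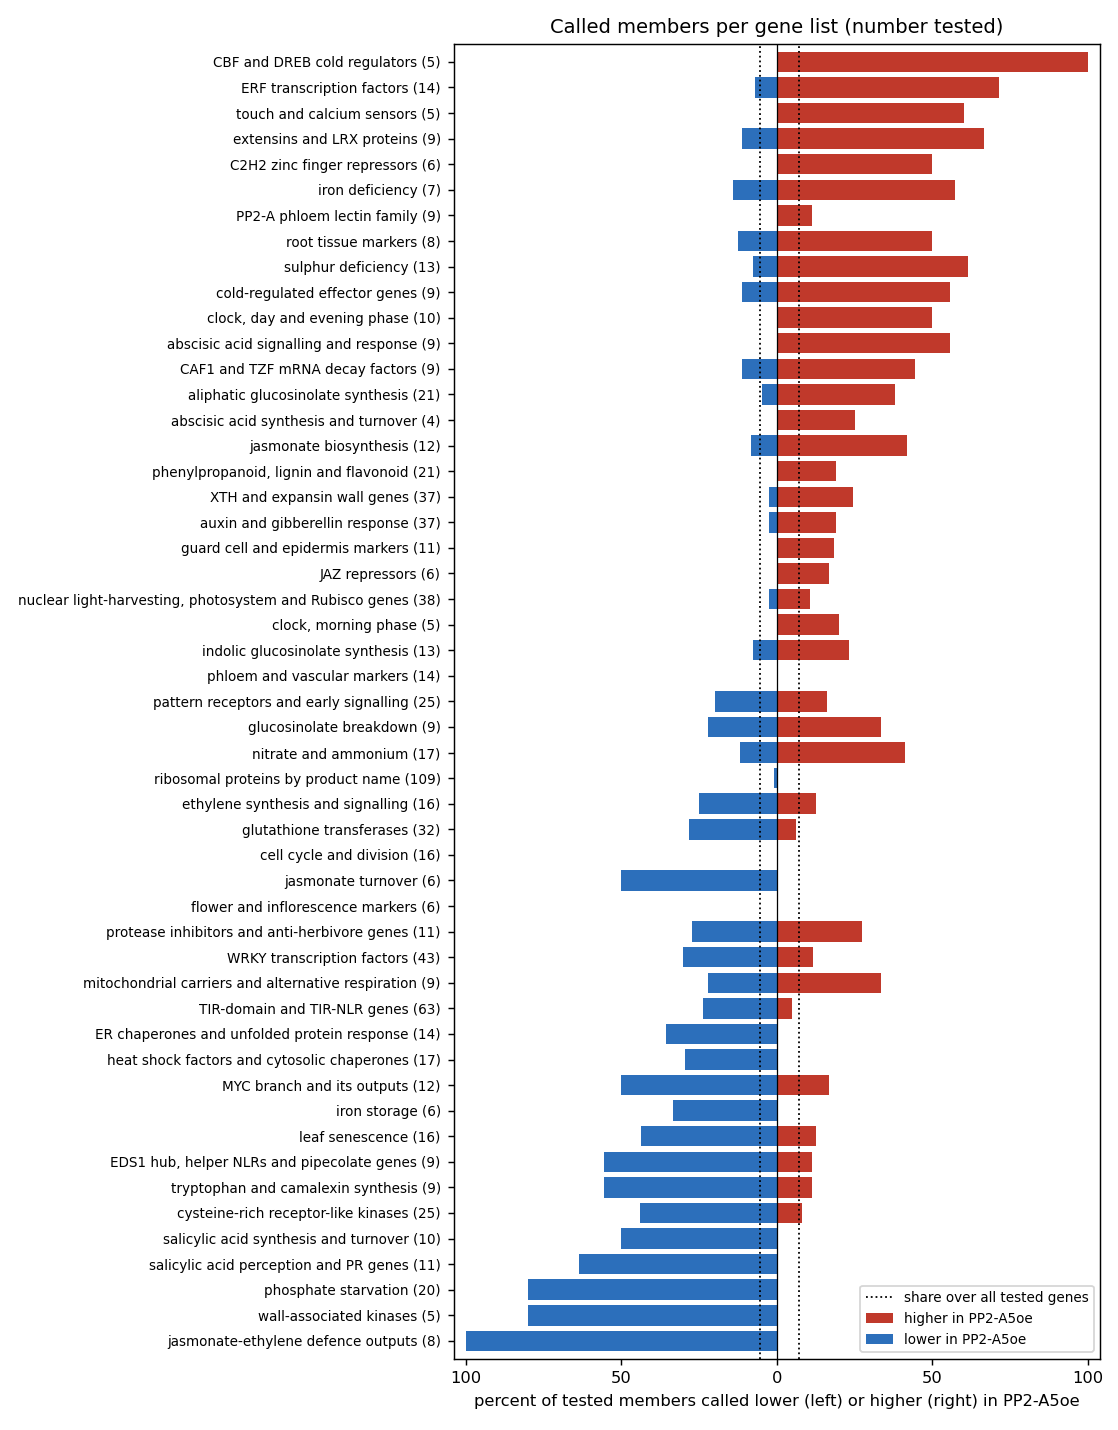
Each row is a gene list, with its number of tested members in parentheses, ordered by median log2 fold change; red bars to the right give the percent of tested members called higher in PP2-A5oe and blue bars to the left the percent called lower, and dotted lines mark the shares over all tested genes. All 5 tested members of the CBF and DREB list at the top were called higher and all 8 tested jasmonate-ethylene outputs at the bottom lower.

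The first lists hold transcripts that plants induce within minutes of touch, wounding or cold. Among ERF factors, which bind promoters of stress and ethylene-responsive genes, 10 of 14 tested members were higher and 1 was lower, with a median log2 fold change of 1.49. AT5G51190 had 129, 138 and 122 CPM in PP2-A5oe, against 14.3, 13.7 and 12.8 CPM in pp2-a5, where Col-0 averaged 14.5 ± 0.891 CPM (SD, n = 3). It overlaps a neighbouring gene. ERF5 rose by 2.01 ± 0.13 and ERF104 by 1.79 ± 0.10 on the log2 scale, and ERF6, ERF11 and ERF13 were also higher. The lower member was ORA59, an activator of defensin genes, at 2.11 ± 0.763 CPM in PP2-A5oe, against 4.08 ± 0.240 CPM in pp2-a5. Its call was lost (0 members lower) by DESeq2 and without PP2-A5oe replicate 2 or 3 or pp2-a5 replicate 1 or 3.

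Of 6 tested C2H2 zinc finger repressors, which dampen stress transcription, 3 were higher and none lower (median 0.98). STZ (AT1G27730, chr1:9648021-9649323) had 347, 348 and 333 CPM in PP2-A5oe, against 42.5, 36 and 37 CPM in pp2-a5. Its groups lay apart by a log2 fold change of 3.15 ± 0.07 (adjusted p = 3.02e-26), and Col-0 was at 25.2 ± 1.76 CPM (SD, n = 3). RHL41 and ZAT6 rose by 2.18 ± 0.16 and 1.48 ± 0.15 on the log2 scale. Of 9 tested genes for mRNA decay factors of the CAF1 and tandem zinc finger families, 4 were higher and 1 was lower (median 0.32). Beside CAF1a these were its close relative CAF1b, at 16.5 ± 1.39 CPM in PP2-A5oe, against 7.42 ± 0.914 CPM in pp2-a5, the zinc finger gene SZF1, with 2 annotated transcripts, at 272 ± 6.98 CPM in PP2-A5oe, against 85.1 ± 4.42 CPM in pp2-a5 (SD, n = 3 each), and OXS2. The lower one, AT5G44260, was no longer called (0 members) without pp2-a5 replicate 2.

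Of 5 tested touch genes and calcium sensors, 3 were higher and none lower (median 1.21). TCH4, a xyloglucan endotransglucosylase induced by touch, had 153, 159 and 156 CPM in PP2-A5oe, against 20.4, 17.5 and 18.6 CPM in pp2-a5, and rose by 3.05 ± 0.09 on the log2 scale (adjusted p = 1.16e-23). The calmodulin-like TCH2 rose by 1.97 ± 0.08, with 2 annotated transcripts and an overlapping gene. The calmodulin-like CML23, at 2.77 ± 0.500 CPM in PP2-A5oe, against 1.18 ± 0.218 CPM in pp2-a5, was close to the threshold (adjusted p = 0.0248). Its edgeR call was lost without PP2-A5oe replicate 1 (adjusted p = 0.0785) or 2 (0.125) and without pp2-a5 replicate 1 (0.106) or 2 (0.0804), and DESeq2 gave 0.141.

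**Figure D4:**
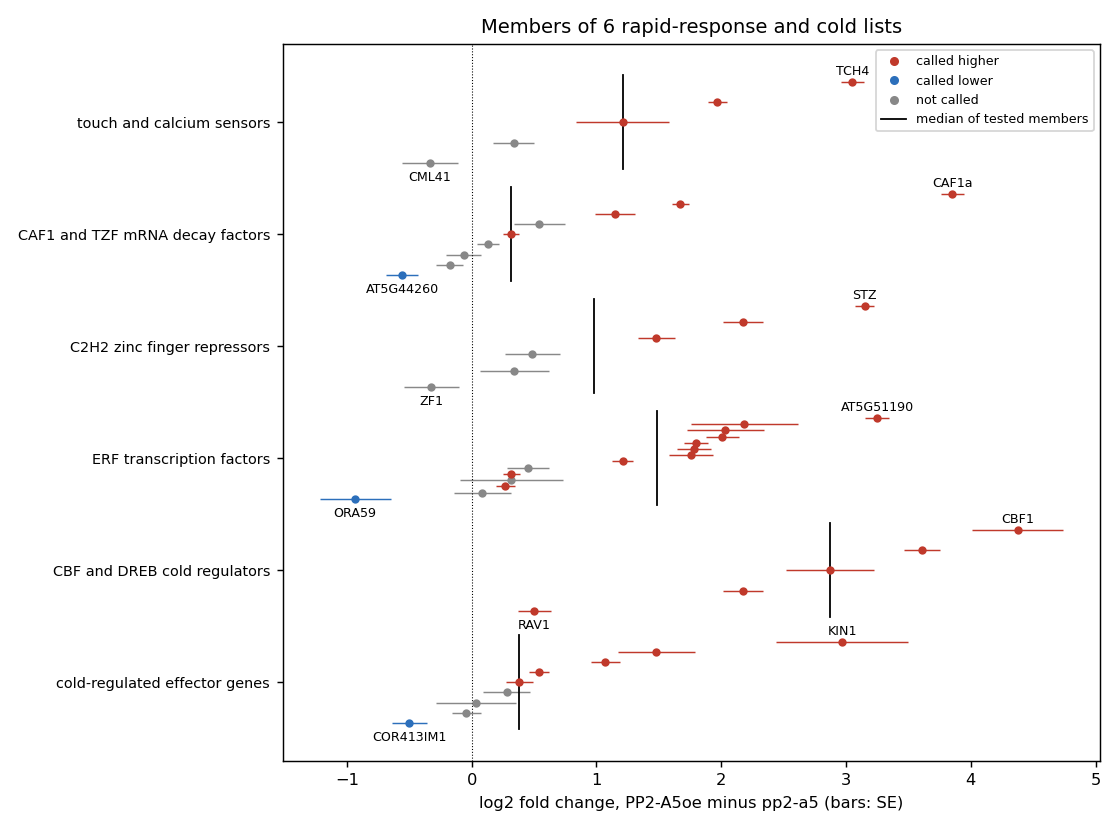
The log2 fold change, PP2-A5oe over pp2-a5, of each tested member of the touch, mRNA decay, zinc finger, ERF, CBF and cold effector lists is on the x axis, with bars of 1 standard error; red points were called higher, blue points lower, grey points were not called, and vertical lines are list medians. The members range from ORA59 at -0.93 to CBF1 at 4.38.

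Of the genes called higher, CBF2 is on the CBF list, DIC2 on that of mitochondrial carriers and PHI-1 on that of early signalling. AT4G29780 was named above for its rise. Promoters of these 4 genes are shown for CGCGT, the core of the box that calmodulin-binding CAMTA factors recognise in touch and cold genes. They are the 250 bases before the annotated gene start on TAIR10.1 (RefSeq), written 5′ to 3′ on the gene's strand, with CGCGT on either strand in capitals; where a match on one strand overlaps one on the other, the run of capitals is longer.
DIC2 (chr4:12686209-12686458, plus strand): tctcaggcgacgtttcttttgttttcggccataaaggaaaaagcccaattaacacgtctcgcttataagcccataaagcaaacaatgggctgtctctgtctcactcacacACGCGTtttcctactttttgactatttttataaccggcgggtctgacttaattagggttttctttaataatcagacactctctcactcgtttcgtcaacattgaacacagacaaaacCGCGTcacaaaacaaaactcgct
CBF2 (chr4:13016236-13016485, minus strand): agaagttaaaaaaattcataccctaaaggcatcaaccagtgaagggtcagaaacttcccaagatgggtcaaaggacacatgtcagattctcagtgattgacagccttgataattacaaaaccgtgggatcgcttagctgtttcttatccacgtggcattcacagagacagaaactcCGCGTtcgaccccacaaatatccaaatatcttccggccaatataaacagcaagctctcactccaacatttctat
AT4G29780 (chr4:14579313-14579562, plus strand): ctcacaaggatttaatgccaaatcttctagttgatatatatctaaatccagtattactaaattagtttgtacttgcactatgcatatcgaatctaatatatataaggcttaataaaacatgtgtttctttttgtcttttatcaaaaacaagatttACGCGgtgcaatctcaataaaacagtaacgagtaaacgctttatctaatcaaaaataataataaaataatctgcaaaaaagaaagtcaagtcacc
PHI-1 (chr1:12851733-12851982, plus strand): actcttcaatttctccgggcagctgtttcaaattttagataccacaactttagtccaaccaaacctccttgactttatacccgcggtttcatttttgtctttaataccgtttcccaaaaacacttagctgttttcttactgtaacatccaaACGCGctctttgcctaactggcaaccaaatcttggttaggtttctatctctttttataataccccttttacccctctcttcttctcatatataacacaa
In DIC2 the letters began 139 and 23 bases before the start on the gene's strand and 140 bases before it on the other strand, overlapping the first match. The other promoters held 1 match each, 74 bases before the start in CBF2 on the gene's strand, and 95 bases in AT4G29780 and 99 bases in PHI-1 on the other strand. Over all 13569 tested genes with a promoter read, 7.21% held CGCGT on either strand. The share was 10.1% of the genes called higher, 17.9% of those at least 2-fold higher and 7.61% of those at least 2-fold lower. These shares describe letters only, and the genes shown were picked for holding them.

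The CBF transcription factors switch on cold-acclimation genes, and all 5 tested members of the CBF and DREB list were higher, with a median of 2.87. CBF2 had 52.4, 49.2 and 48.6 CPM in PP2-A5oe, against 5.19, 3.64 and 3.44 CPM in pp2-a5 (log2 fold change 3.61 ± 0.15, adjusted p = 8.18e-20). CBF1 had 8.78, 10.5 and 8.82 CPM in PP2-A5oe, against 0.649, 0.165 and 0.469 CPM in pp2-a5, and DREB1A averaged 5.23 ± 0.566 CPM in PP2-A5oe, against 0.695 ± 0.228 CPM in pp2-a5 (SD, n = 3 each). These 3 are near-identical neighbours on chromosome 4, so reads may be split between them, and Col-0 was low for each, at 2.70, 0.167 and 0.339 CPM for CBF2, CBF1 and DREB1A. RAV1 and RHL41 completed the tested members, and RHL41 was also counted among the zinc finger repressors. CBF4, DDF1, ICE1 and DREB2B had too few counts to be tested. The effectors that CBF factors induce moved less: 5 of 9 tested were higher and 1 was lower, with a median of 0.38. The dehydrin COR47 rose by 0.54 ± 0.08, LTI30 by 1.48 and LTI78 by 0.38 on the log2 scale. The near-identical pair KIN2 and KIN1 rose by 1.07 ± 0.12 and 2.97 ± 0.53, and COR15B had a log2 fold change of 0.03 without a call. The lower one, COR413IM1, was no longer called (0 members) by DESeq2 or without PP2-A5oe replicate 3.

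Of 9 tested genes of mitochondrial carriers and alternative respiration 3 were higher, DIC2 among them, and 2 were lower (median -0.17). The carrier UCP5 (also a dicarboxylate carrier) had 98.9, 114 and 105 CPM in PP2-A5oe, against 37.8, 37.2 and 37.7 CPM in pp2-a5, and Col-0 was at 18.8 ± 2.39 CPM (SD, n = 3). The alternative NADH dehydrogenase NDA1 rose by 0.41. AOX1D, an alternative oxidase with 2 annotated transcripts, went the other way, at 1.82, 2.70 and 1.90 CPM in PP2-A5oe, against 6.97, 10.9 and 9.38 CPM in pp2-a5. DIC3 was also lower, and without PP2-A5oe replicate 1 only 1 member was. AOX1A, the main stress-induced alternative oxidase, had a log2 fold change of -0.02 without a call.

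Of 12 tested genes for jasmonate synthesis, 5 were higher and 1 was lower (median 0.14). AOS, which commits the pathway to jasmonate, had 203, 204 and 209.5 CPM in PP2-A5oe, against 131, 138 and 135 CPM in pp2-a5, with a log2 fold change of 0.61 ± 0.06 (adjusted p = 2.21e-09). The cyclases AOC2 and AOC3 rose by 0.48 ± 0.07 and 1.06 ± 0.16, LOX2 by 0.32 and JMT by 0.62. The lower one was the lipoxygenase LOX6, whose call was lost without PP2-A5oe replicate 2 or pp2-a5 replicate 1 or 3 (0 members). Among 6 tested turnover genes none was higher and 3 were lower. JRG21, a jasmonate hydroxylase with 2 annotated transcripts, had 4.31, 3.97 and 3.98 CPM in PP2-A5oe, against 16.9, 15.5 and 16.6 CPM in pp2-a5, and the sulphotransferase ST2A fell by 1.23 ± 0.20. The amidohydrolase IAR3 fell by 0.28 (adjusted p = 0.0278), a call lost without PP2-A5oe replicate 1 (0.0844) or 3 (0.114) or pp2-a5 replicate 1 (0.157) or 3 (0.0504) or by DESeq2 (0.0972).

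MYC2, the transcription factor at the head of the wound branch, had 293, 288 and 272 CPM in PP2-A5oe, against 142, 132 and 142 CPM in pp2-a5. It overlaps another gene. Its log2 fold change was 1.03 ± 0.06 (adjusted p = 1.05e-14), and Col-0 was at 93.9 ± 2.83 CPM (SD, n = 3). Over the MYC branch and its outputs 2 of 12 tested genes were higher and 6 were lower, with a median of -0.30. The lower ones included the transcription factors NAC3 (-1.76 ± 0.22) and NAC019 (-1.34 ± 0.18), the acetyltransferase NATA1 (-1.43) and the tyrosine aminotransferase TAT3 (-0.82). MYC3 (0.03) and MYC4 (0.06) were not called. Of 6 tested genes on the list of JAZ repressors, which also holds AT3G22160, a gene without a JAZ name, JAZ5 was higher (0.71 ± 0.13) and none was lower.

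All 8 tested outputs of the combined jasmonate and ethylene branch were lower in PP2-A5oe, with a median log2 fold change of -1.45. PDF1.2 (AT5G44420, chr5:17906968-17907638), the marker defensin of this branch, had 9.12, 7.03 and 9.51 CPM in PP2-A5oe, against 29.0, 23.8 and 25.8 CPM in pp2-a5. The groups lay about 3-fold apart (log2 fold change -1.61 ± 0.15, adjusted p = 2.78e-10), and both lay above Col-0 at 1.81 ± 0.877 CPM (SD, n = 3). PDF1.2b (-1.52 ± 0.30) and PDF1.2c (-2.08 ± 0.38) are near-identical copies of PDF1.2, so these 3 values are not independent. The basic chitinase HCHIB, which overlaps another gene, had 7.62, 8.83 and 9.85 CPM in PP2-A5oe, against 20.4, 21.5 and 17.5 CPM in pp2-a5. PR4, a chitin-binding protein, averaged 77.3 CPM in PP2-A5oe, against 145 CPM in pp2-a5, and fell by 0.91 on the log2 scale. PDF1.3, PDF1.4 and ORA59 completed the list.

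The promoters of PDF1.2 and PDF1.2b are shown because both hold the GCC-box GCCGCC, the letters that ERF factors such as ORA59 bind in defensin promoters. The 250 bases before the gene start on TAIR10.1 (RefSeq) run 5′ to 3′ on the gene's strand, with GCCGCC in capitals.
PDF1.2 (chr5:17907639-17907888, minus strand): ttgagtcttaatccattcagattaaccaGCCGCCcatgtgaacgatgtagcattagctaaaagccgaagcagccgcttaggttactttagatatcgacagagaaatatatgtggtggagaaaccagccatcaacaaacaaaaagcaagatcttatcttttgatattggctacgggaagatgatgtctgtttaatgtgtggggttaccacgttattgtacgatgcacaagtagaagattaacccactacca
PDF1.2b (chr2:11088873-11089122, plus strand): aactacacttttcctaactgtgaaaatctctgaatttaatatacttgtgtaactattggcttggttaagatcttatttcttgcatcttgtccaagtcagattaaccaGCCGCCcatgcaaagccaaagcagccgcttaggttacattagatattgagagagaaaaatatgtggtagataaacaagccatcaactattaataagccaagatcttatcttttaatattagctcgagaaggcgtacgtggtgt
The match began 222 bases before the start in PDF1.2 and 143 bases before it in PDF1.2b, on the gene's strand in both. On either strand GCCGCC occurred in 37.5% of the 8 promoters of this list, in 4.35% of the promoters of genes at least 2-fold lower, in 1.61% of those called higher and in 1.98% of all tested.

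No member of the 2 salicylic acid lists was higher in PP2-A5oe by edgeR, DESeq2 or limma-voom. Of 10 tested genes of salicylic acid synthesis and turnover 5 were lower (median -0.45), and of 11 genes of its perception and the PR genes it induces 7 were lower (median -0.48). PR1 (AT2G14610, chr2:6241640-6242541), the marker gene of salicylic acid responses, had 32.8, 32.6 and 30.9 CPM in PP2-A5oe, against 121, 108 and 100.4 CPM in pp2-a5. All pp2-a5 replicates lay more than 3-fold above all PP2-A5oe replicates, while Col-0 at 27.9 ± 1.74 CPM (SD, n = 3) was close to PP2-A5oe. The log2 fold change of PR1 was -1.77 ± 0.09 (adjusted p = 1.92e-17).

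BGL2, the glucanase PR2, has 2 annotated transcripts and fell to 67.4 ± 4.41 CPM in PP2-A5oe, against 144 ± 1.71 CPM in pp2-a5 (SD, n = 3 each). PR5 fell by 0.82 on the log2 scale. Of the genes that remove salicylic acid, the hydroxylase DMR6 had 152, 139.7 and 153 CPM in PP2-A5oe, against 288, 277 and 269.7 CPM in pp2-a5. Its relative AT4G10500 fell by 1.70 ± 0.15 and the glucosyltransferase UGT74F2, which overlaps another gene, by 0.64 ± 0.07. The synthesis genes PBS3 (-0.27), EDS5 (-0.16) and ICS2 (-0.18) and the receptor gene NPR1 (-0.20) were not called. On the list of synthesis and turnover SARD1 was lower (-0.91), and EDS16 and CBP60G had too few counts to be tested.

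**Figure D5:**
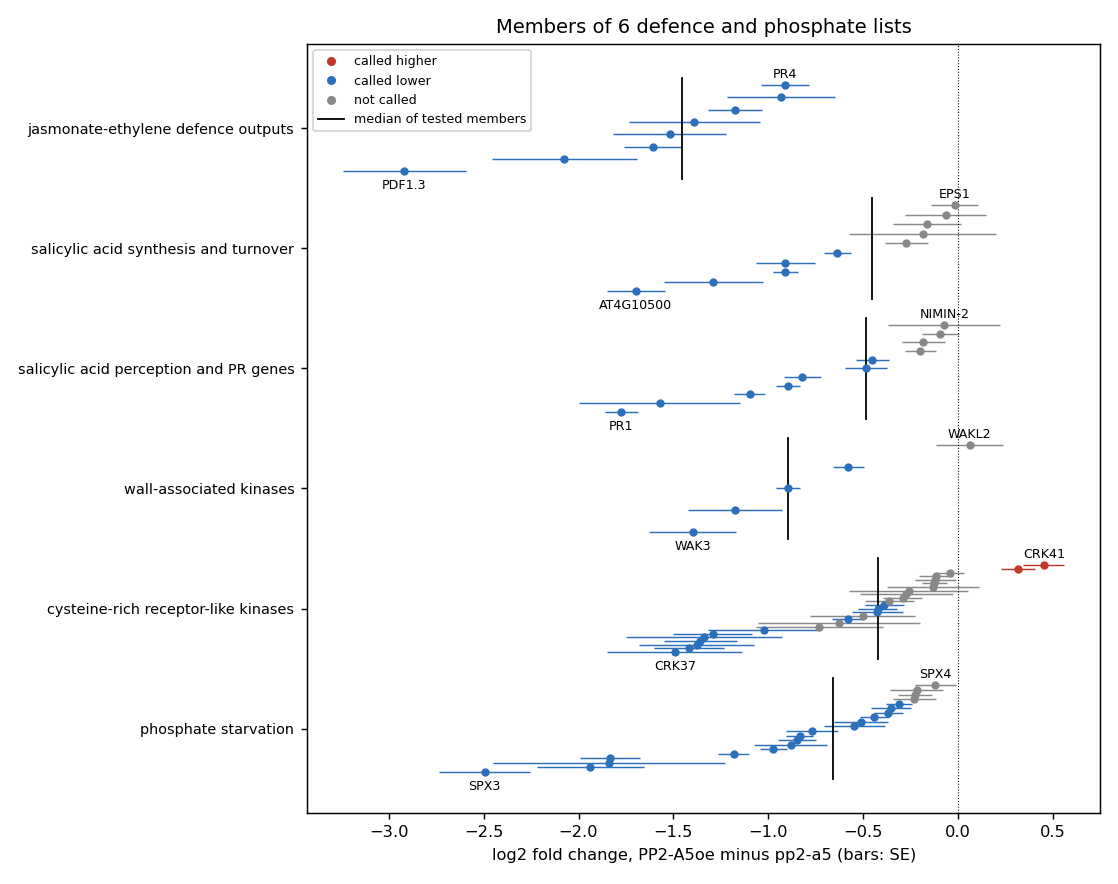
The log2 fold change, PP2-A5oe over pp2-a5, of each tested member of 6 defence and phosphate lists is on the x axis, with bars of 1 standard error; blue points were called lower, red points higher, grey points were not called, and vertical lines are list medians. All members of the jasmonate-ethylene, salicylic acid and phosphate lists lie below 0, the lowest being PDF1.3 at -2.92.

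Of 9 tested genes around the immune hub EDS1 and the signal pipecolate 5 were lower and 1 was higher (median -0.35). The lipid-transfer gene AZI1 had 53, 49.9 and 37.5 CPM in PP2-A5oe, against 113, 117 and 99.3 CPM in pp2-a5, and the protease gene AT5G10760 fell by 0.92 ± 0.08. FMO1, which makes N-hydroxypipecolate, averaged 0.874 CPM in PP2-A5oe, against 3.37 CPM in pp2-a5, and PAD4 fell by 0.35. The higher one was NDR1, a membrane protein that several immune receptors need, at 41.3, 36.8 and 39.9 CPM in PP2-A5oe, against 19.3, 15.2 and 20.6 CPM in pp2-a5. Without PP2-A5oe replicate 3 there were 2 higher members.

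Of 25 tested cysteine-rich receptor-like kinases 11 were lower and 2 higher (median -0.42), with CRK4 at 51.8 ± 0.420 CPM in PP2-A5oe, against 77.4 ± 2.27 CPM in pp2-a5 (SD, n = 3 each). CRK23 fell by 1.42 ± 0.18 and CRK7 by 1.36 ± 0.19, and 1 in place of 2 members was higher by DESeq2 or without PP2-A5oe replicate 2 or pp2-a5 replicate 2 or 3. Among the genes with 1 annotated transcript, 5 were lower and none was higher. Of 5 tested wall-associated kinases, which bind pectin, 4 were lower and none higher (median -0.90). WAK1, itself induced by salicylic acid, had 167, 165 and 170.1 CPM in PP2-A5oe, against 323, 303 and 309 CPM in pp2-a5. The lowered WAK2 (-0.58 ± 0.08) and WAK3 (-1.40 ± 0.23) lie beside it on chromosome 1.

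Of 25 tested pattern receptors and early signalling genes 4 were higher and 5 lower, with a median of 0.02. PHI-1, a phosphate-induced wall protein in the list, had 40.3, 37.0 and 33.7 CPM in PP2-A5oe, against 5.19, 5.79 and 4.22 CPM in pp2-a5, and the chitin co-receptor LYK5 rose by 0.60 ± 0.09. RLP23, the receptor of a microbial peptide, overlaps another gene and had 50.7, 49.2 and 61.9 CPM in PP2-A5oe, against 123, 127 and 121 CPM in pp2-a5. The counts became 2 higher and 3 lower by DESeq2, 2 higher without PP2-A5oe replicate 2 or pp2-a5 replicate 2 or 3, and 3 lower without PP2-A5oe replicate 1 or pp2-a5 replicate 2 or 3. The kinases MPK3 (0.03) and MPK6 (0.05) and the oxidase RBOHD (0.06) were not called.

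The TIR domain and the lectin domain each link PP2-A5 to a family. Of 63 tested genes with a TIR domain, 3 were higher and 15 were lower (median -0.17). The count of lower members was 8 by DESeq2, without PP2-A5oe replicate 1, without PP2-A5oe replicate 2 or without pp2-a5 replicate 3, and 9 without pp2-a5 replicate 2. Among the genes with 1 annotated transcript it was 3. AT3G04210 had 129, 133 and 124 CPM in PP2-A5oe, against 194, 186 and 189 CPM in pp2-a5, with 2 annotated transcripts. The neighbours AT1G72920 and AT1G72910 were higher, with 27.7, 27.6 and 30.1 CPM in PP2-A5oe, against 12.3, 11.4 and 13.9 CPM in pp2-a5 for the first, and a log2 fold change of 0.78 ± 0.12 for the second. Of the PP2-A lectin family itself 9 of 15 genes were tested. PP2-A1, the phloem lectin of the sieve tubes, had 254, 258 and 242 CPM in PP2-A5oe, against 261, 251 and 245 CPM in pp2-a5, and its groups overlapped (log2 fold change -0.01 ± 0.07, adjusted p = 0.973). PP2-A10 was called higher, at 9.45, 7.75 and 9.51 CPM in PP2-A5oe, against 5.84, 6.45 and 6.10 CPM in pp2-a5 (adjusted p = 0.0433). The call was lost without PP2-A5oe replicate 1 (adjusted p = 0.156) or 3 (0.131) or pp2-a5 replicate 1 (0.127), 2 (0.0784) or 3 (0.110) and also by DESeq2 (0.196) and without the filter (0.0673), while 2 members were called without PP2-A5oe replicate 2. The other 7 tested members had log2 fold changes of 0.10 (PP2-A12) to 1.04 (PP2-A6, adjusted p = 0.0964) without a call.

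Of 43 tested WRKY factors, which act in both salicylic acid and stress responses, 5 were higher and 13 lower (median -0.16). WRKY22, activated by microbial patterns, had 48.6, 40.7 and 43.4 CPM in PP2-A5oe, against 12.7, 16.4 and 14.9 CPM in pp2-a5. WRKY40, which overlaps another gene, rose by 1.27 ± 0.11 on the log2 scale and WRKY46 by 0.90. WRKY70, a factor of salicylic acid responses, had 59.0, 67.1 and 62.4 CPM in PP2-A5oe, against 107, 98.0 and 105 CPM in pp2-a5, and WRKY54, its close relative, fell by 0.74. WRKY45 fell by 1.13 and WRKY53 by 0.37, while WRKY33 rose by 0.41.

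Glucosinolates are the sulphur-rich defence compounds of this plant family. Of 21 tested genes of aliphatic synthesis 8 were higher and 1 was lower (median 0.29). The regulator MYB29 had 24.4, 18.9 and 22.3 CPM in PP2-A5oe, against 9.89, 12.4 and 14.4 CPM in pp2-a5, and Col-0 was above both at 35.6 ± 1.41 CPM (SD, n = 3). The elongation enzyme MAM1, with 3 annotated transcripts, rose by 0.29 ± 0.07 and GSTU20 by 0.36 ± 0.08. Without PP2-A5oe replicate 2 or by DESeq2 the number of higher members was 4, and without pp2-a5 replicate 3 it was 5. In the indolic branch 3 of 13 tested were higher and 1 was lower (median 0.04). The regulator MYB51 was the lower one (-0.59 ± 0.10) and MYB34 was higher (0.46 ± 0.08). Without Col-0 replicate 3 the lower members were 3, and without PP2-A5oe replicate 3, pp2-a5 replicate 2 or Col-0 replicate 2 they were 2.

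Of 9 tested genes of tryptophan and camalexin synthesis 5 were lower and 1 was higher (median -0.40). The lower ones included TSA1 (-0.40) and TSB1 (-0.29), which make tryptophan itself. CYP71A12 had 8.78, 6.49 and 9.85 CPM in PP2-A5oe, against 34.5, 32.1 and 31.9 CPM in pp2-a5, and PAD3, the last enzyme of camalexin synthesis, fell by 1.57. GSTF7 averaged 39.9 ± 2.11 CPM in PP2-A5oe, against 86.8 ± 9.02 CPM in pp2-a5 (SD, n = 3 each), but it is nearly identical to GSTF6. CYP71A13, a close copy of CYP71A12 that lies beside it and overlaps another gene, went the other way, at 48.4, 42 and 52.4 CPM in PP2-A5oe, against 20.6, 24.6 and 20.6 CPM in pp2-a5. Among glucosinolate breakdown genes 3 of 9 tested were higher and 2 lower, of which 1 was NIT2. The specifier protein NSP5 rose by 0.48 ± 0.06 and the myrosinase-like PYK10, which overlaps another gene, by 0.39 ± 0.07. The other lower gene was NIT4, and only 1 member was lower by DESeq2 or without PP2-A5oe replicate 1 or 2 or pp2-a5 replicate 3. Of 11 tested protease inhibitors and other genes against herbivores 3 were higher and 3 lower. The thionin THI2.2 rose by 1.76 ± 0.19, while the trypsin inhibitors TI1 and KTI1 fell by 1.53 ± 0.16 and 0.96 ± 0.14.

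Of 20 tested phosphate starvation genes 16 were lower and none was higher, by edgeR, DESeq2 or limma-voom, with a median of -0.66, and all 20 had a negative log2 fold change. PS2, a phosphatase induced by phosphate shortage, had 49.6, 51.0 and 47.5 CPM in PP2-A5oe, against 121, 108 and 107 CPM in pp2-a5, with Col-0 between at 77.4 ± 5.50 CPM (SD, n = 3). SPX1, an inhibitor of the phosphate starvation regulator PHR1, had 88.3, 89.0 and 95.8 CPM in PP2-A5oe, against 194, 166 and 175 CPM in pp2-a5. The groups of both genes lay apart, with log2 fold changes of -1.18 ± 0.08 (adjusted p = 1.73e-13) and -0.97 ± 0.07 (adjusted p = 8.19e-13).

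SPX3 had 2.15, 2.34 and 1.04 CPM in PP2-A5oe, against 10.5, 11.4 and 9.54 CPM in pp2-a5, and was the member that fell most (-2.49 ± 0.24). The phospholipase NPC4, which frees phosphate from membrane lipids, had 5.97, 5.05 and 5.01 CPM in PP2-A5oe, against 20.8, 17.2 and 19.4 CPM in pp2-a5. Of the phosphate transporters, PHT1;1 fell by 0.88, PHT1;4 by 0.85 and PHT1;5 by 1.94 on the log2 scale, and the non-coding IPS1 by 0.77. The sulpholipid enzymes SQD1 and SQD2 fell by 0.31 and 0.37. SPX2, SPX4, PHO1 and PHF1 were the 4 members without a call, at -0.23 to -0.12.

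The promoters of PS2, SPX3 and NPC4 are shown because each holds the P1BS element GNATATNC, the letters that PHR1 binds. The 250 bases before the gene start on TAIR10.1 (RefSeq) run 5′ to 3′ on the gene's strand, with GNATATNC in capitals; the element is its own reverse complement, so each place matches on both strands.
PS2 (chr1:27466349-27466598, minus strand): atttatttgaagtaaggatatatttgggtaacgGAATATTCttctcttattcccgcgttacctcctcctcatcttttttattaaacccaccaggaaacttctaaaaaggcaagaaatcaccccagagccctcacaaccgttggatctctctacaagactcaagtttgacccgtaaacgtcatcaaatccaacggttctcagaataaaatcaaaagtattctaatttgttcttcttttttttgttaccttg
SPX3 (chr2:18606160-18606409, plus strand): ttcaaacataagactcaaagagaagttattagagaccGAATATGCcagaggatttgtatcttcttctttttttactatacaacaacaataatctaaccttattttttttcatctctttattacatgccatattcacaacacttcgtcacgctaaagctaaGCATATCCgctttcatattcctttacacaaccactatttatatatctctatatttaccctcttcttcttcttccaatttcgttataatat
NPC4 (chr3:845097-845346, minus strand): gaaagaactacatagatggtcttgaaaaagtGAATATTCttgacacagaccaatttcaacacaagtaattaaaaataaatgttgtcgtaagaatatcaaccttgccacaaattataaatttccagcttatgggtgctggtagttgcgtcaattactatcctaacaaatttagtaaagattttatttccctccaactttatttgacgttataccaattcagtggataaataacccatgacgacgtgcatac
The element began 217 bases before the start in PS2, 219 bases before it in NPC4, and 213 and 90 bases before it in SPX3. It occurred in 30.0% of the 20 promoters of this list, in 12.5% of the promoters of genes at least 2-fold lower, in 9.40% of those called lower, in 6.14% of those called higher and in 5.6% of all tested. No statement about binding follows from the letters.

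Of 13 tested sulphur deficiency genes 8 were higher and 1 was lower (median 0.40). SHM7 had 873, 870.3 and 855 CPM in PP2-A5oe, against 603, 557 and 578 CPM in pp2-a5, and Col-0 was lower than both at 338 ± 6.07 CPM (SD, n = 3). ATSDI1, a repressor of glucosinolate synthesis under sulphur shortage, rose by 0.65 ± 0.07 and the glutathione-degrading AT5G26220, with 2 annotated transcripts, by 0.77 ± 0.09. LSU4, at 3.05 ± 0.106 CPM in PP2-A5oe, against 5.27 ± 0.416 CPM in pp2-a5, was the lower one, but it was not called by DESeq2, without any 1 of the PP2-A5oe replicates or without pp2-a5 replicate 1 or 2 (0 members).

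Of 7 tested iron deficiency genes 4 were higher and 1 was lower (median 0.50). Of 6 tested members of the iron storage list none was higher and 2 were lower (median -0.30). The transporter OPT3 had 701, 686 and 651 CPM in PP2-A5oe, against 505, 499 and 470.1 CPM in pp2-a5. The nicotianamine synthase NAS4 rose by 0.67 ± 0.08 and BTS, a sensor that restrains iron uptake, by 0.53 ± 0.07, while NAS3 fell by 0.78. The ferritin FER4, which overlaps another gene, had 60.5, 63.1 and 59.1 CPM in PP2-A5oe, against 93.9, 86.8 and 87.9 CPM in pp2-a5. YSL1, on the storage list but not a ferritin, fell by 0.40 ± 0.09. The ferritin FER3 was not called (-0.14), and FER1 was missing from the deposited counts.

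Of 17 tested nitrate and ammonium genes 7 were higher and 2 lower (median 0.01). Nitrate reductase NIA1 had 851, 864 and 878 CPM in PP2-A5oe, against 397, 404 and 393 CPM in pp2-a5, and Col-0 was between at 703 ± 30.6 CPM (SD, n = 3). NIA2, the major leaf isoform, had 6902, 6847 and 6383 CPM in PP2-A5oe, against 4897, 5203 and 4941 CPM in pp2-a5, the largest rise in CPM among the called genes (log2 fold change 0.42 ± 0.05, adjusted p = 3.26e-07). The ammonium transporter AMT1;2 rose by 0.51 ± 0.06 and the nitrite reductase NIR1 by 0.34. The nitrate transporter NRT1.8, which overlaps another gene, was lower, at 1.99, 1.8 and 2.77 CPM in PP2-A5oe, against 6.49, 6.61 and 7.5 CPM in pp2-a5.

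In ethylene synthesis and signalling 2 of 16 tested were higher and 4 lower (median -0.06). ACS6, a stress-induced enzyme of ethylene synthesis, had 84.7, 88.3 and 85.2 CPM in PP2-A5oe, against 26.6, 24.6 and 24.7 CPM in pp2-a5. ACS6 was followed by ACS11, which was not called (1 higher member) by DESeq2 or limma-voom, in a fit of the 6 libraries of the lines alone, or without PP2-A5oe replicate 1 or 3 or pp2-a5 replicate 2 or 3. The F-box gene EBF2 and the receptor gene ERS1, both of which overlap other genes, fell by 0.65 ± 0.07 and 0.39 ± 0.08. NCED3, the stress-induced step of abscisic acid synthesis, had 68.0, 63.3 and 66.2 CPM in PP2-A5oe, against 30.8, 40.01 and 37.4 CPM in pp2-a5, and 5 of 9 tested abscisic acid response genes were higher and none lower (median 0.33). Of these 5, COR47, KIN2 and LTI30 are also cold genes.

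In the auxin and gibberellin list 7 of 37 tested were higher and 1 was lower (median 0.12). The number higher was 3 without pp2-a5 replicate 3, and the number lower was 2 without pp2-a5 replicate 2, Col-0 replicate 2 or Col-0 replicate 3. GA3OX1, of gibberellin synthesis, rose by 0.65 ± 0.11 and the auxin-conjugating GH3.3 fell by 1.00 ± 0.20. Of 10 tested genes on the list for the day and evening clock 5 were higher and none lower (median 0.36). The phases are headings of the lists, and the time of day at which members peak was not examined. The higher ones were PRR5, GI, CDF1, CDF3 and COL2, and 3 were higher without PP2-A5oe replicate 1 or pp2-a5 replicate 3. PRR7, TOC1, ELF3, BOA and BBX19 were not called, at -0.14 (TOC1) to 0.43 (BOA). CDF1 and CDF3 rose by 0.48 ± 0.06 and 0.43 ± 0.06, and GI had 12.8, 10.1 and 12.4 CPM in PP2-A5oe, against 4.70, 5.46 and 6.88 CPM in pp2-a5. Of 5 tested genes on the list for the morning clock CCA1 was higher (adjusted p = 0.0172), but not without PP2-A5oe replicate 2 (0.0564) or 3 (0.135) or pp2-a5 replicate 1 (0.163).

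The genes that follow are given for the size of their difference in CPM. The wall extensin EXT3 (AT1G21310, chr1:7453245-7455009), which overlaps another gene, had 2084, 2089.9 and 1866 CPM in PP2-A5oe, against 4142, 4319 and 3709 CPM in pp2-a5, with Col-0 at 2104 ± 247 CPM (SD, n = 3). AT5G42530 had 3476, 3579 and 3076.1 CPM in PP2-A5oe, against 6383, 5973 and 5902 CPM in pp2-a5, and ECS1 fell by 0.44 ± 0.06. In each of these genes the high values were those of pp2-a5, and Col-0 lay near or below PP2-A5oe. Among the rises in absolute terms, the glycine decarboxylase GLDP2 had 3311, 3274 and 3277 CPM in PP2-A5oe, against 2335, 2504 and 2318 CPM in pp2-a5. The plastid beta-amylase CT-BMY rose by 0.36 ± 0.05, the tonoplast aquaporin DELTA-TIP by 0.52 ± 0.07 and the early nodulin-like ENODL2 by 0.61 ± 0.06, the first 2 of which overlap other genes.

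Of 38 tested genes for light harvesting, photosystems and Rubisco 4 were higher and 1 was lower (median 0.07), which is near the shares over all tested genes. The number higher was 1 without PP2-A5oe replicate 1, PP2-A5oe replicate 2, pp2-a5 replicate 2 or pp2-a5 replicate 3, 7 without Col-0 replicate 3 and 8 without PP2-A5oe replicate 3. The lower one, the photosystem I subunit PSAD-2, fell by 0.18 (adjusted p = 0.0424) and was not called without PP2-A5oe replicate 2 (0.0794) or 3 (0.240), pp2-a5 replicate 1 (0.166) or 2 (0.163) or Col-0 replicate 1 (0.0616), nor by DESeq2 (0.0724). Of 109 tested ribosomal protein genes 1 was lower and none higher: AT1G77940, with 75.4, 74.4 and 70.0 CPM in PP2-A5oe, against 159, 145 and 145 CPM in pp2-a5. The number lower was 2 without PP2-A5oe replicate 2 and 4 without Col-0 replicate 3. Of 16 tested cell cycle genes 0 were called by edgeR, DESeq2 or limma-voom, 1 had an unadjusted p under 0.05, and 1 was called lower without PP2-A5oe replicate 3 or pp2-a5 replicate 1.

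Of 9 tested extensins and LRX proteins 6 were higher and 1, EXT3, was lower (median 1.12). EXT12 had 12.8, 12.8 and 11.4 CPM in PP2-A5oe, against 3.24, 4.30 and 2.97 CPM in pp2-a5, EXT13 rose by 1.51 ± 0.17 and LRX1 by 1.23 ± 0.22. EXT12, EXT13, EXT6 and EXT10 have more than 1 annotated transcript, and among genes with 1 only 2 were higher. Of 37 tested xyloglucan endotransglucosylases and expansins 9 were higher and 1 was lower (median 0.12). EXPA5 rose by 0.50 ± 0.07 and XTH24 fell by 0.51 ± 0.07, and 2 members were lower without PP2-A5oe replicate 1 or Col-0 replicate 3.

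Several of these wall genes are active in root hairs, and LRX1 is on the list of root markers too. Of 8 tested root markers out of 17, 4 were higher (PRP3, LRX1, SCR and CASP1), 1, HSFB4, was lower and 3 were not called. The lower call was lost (0 members) by DESeq2 and without PP2-A5oe replicate 2 or 3 or pp2-a5 replicate 1. The summed level of the 17 was 354 to 403 CPM in PP2-A5oe libraries, against 296 to 305 CPM in pp2-a5 and 231 to 294 CPM in Col-0. SCR made up most of the sum, the root stem cell gene PLT1 was at 0 in all PP2-A5oe libraries, and WOX5 was too. Their part in the difference of the wall genes was not tested. Of 6 tested flower markers and 14 phloem and vascular markers 0 were called by edgeR, DESeq2 or limma-voom, with 1 of each list at an unadjusted p under 0.05, and the single tested seed marker was not called. Of 11 tested guard cell and epidermis markers 2, KAT1 and TRY, were higher and none was lower. KAT1 was not called by edgeR without PP2-A5oe replicate 3 (adjusted p = 0.128) or pp2-a5 replicate 1 (0.0781), and TRY was not called without PP2-A5oe replicate 3 (0.108) or pp2-a5 replicate 1 (0.106) or 2 (0.0539), nor by DESeq2 (0.0863). Without PP2-A5oe replicate 2 another member was called lower (1).

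Of 32 tested glutathione transferases 9 were lower and 2 higher (median -0.08), and 1 was higher by DESeq2 or without PP2-A5oe replicate 1 or 2 or pp2-a5 replicate 1 or 2. GSTF2 had 1161, 1160.1 and 1065 CPM in PP2-A5oe, against 1851, 1707 and 1712 CPM in pp2-a5, and its near-identical copy GSTF3 fell by 0.94 ± 0.10. Of 17 tested heat shock factors and cytosolic chaperones 5 were lower and none higher (median -0.24). HSP81-3 had 136, 133 and 132 CPM in PP2-A5oe, against 184 CPM in each pp2-a5 replicate. Of 14 tested chaperones of the endoplasmic reticulum 5 were lower and none higher (median -0.18), but 2 were lower without pp2-a5 replicate 1 and 3 without PP2-A5oe replicate 1 or pp2-a5 replicate 3.

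Of 16 tested senescence genes 7 were lower and 2 higher (median -0.33). NAC6, a regulator that speeds up leaf ageing, had 11.6, 11 and 8.82 CPM in PP2-A5oe, against 31.0, 23.8 and 24.7 CPM in pp2-a5, and NAP fell by 0.53. The higher ones were the blue copper protein BCB, at 45.9, 44.9 and 44.3 CPM in PP2-A5oe, against 19.0, 19.5 and 16.7 CPM in pp2-a5, and SAG29 (1.35 ± 0.14). Of 21 tested phenylpropanoid genes 4 were higher and none lower (median 0.13), with PAL1 at 0.26 ± 0.06 and PAL2 at 0.32 ± 0.06.

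Called genes also stood in runs along the chromosomes. On chromosome 1 the berberine-bridge-like oxidases AT1G26380, AT1G26390, AT1G26410 and AT1G26420 were all lower, by 1.22, 2.1, 2.1 and 1.14 on the log2 scale. Their family includes an enzyme of indole-carbonyl defence compounds. AT1G26390 (chr1:9130013-9131779) had 6.63, 6.13 and 4.32 CPM in PP2-A5oe, against 25.6, 25.1 and 22.7 CPM in pp2-a5. On chromosome 4 AZI1 and its neighbours EARLI1, AT4G12490 and AT4G12500 were lower, by 1.22, 1.56, 1.15 and 1.13. Also on chromosome 4, AT4G27652 and AT4G27657 were higher, by 2.16 ± 0.22 and 1.64 ± 0.09. AT4G27654 between them held 39 counts in PP2-A5oe, against 2 in pp2-a5. The ratio was 20.9 (counting interval 5.41 to 179). The members of a run are related copies in the first pair of runs, so their values may share reads.

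The mean of Col-0 lay between those of the lines in 361 of the genes called higher and 348 of those called lower, given here as levels without a test. All Col-0 replicates lay between the replicates of the lines in 61 higher and 81 lower genes with a mean of at least 5 CPM in one line and no overlap of the lines, and those described here had the smallest adjusted p. GPAT3, an acyltransferase of glycerolipid synthesis with 2 annotated transcripts, had 195, 203 and 209.7 CPM in PP2-A5oe, against 72.0, 69.3 and 74.1 CPM in pp2-a5, and 86.3 ± 1.69 CPM in Col-0 (SD, n = 3). AT1G22190, an AP2/ERF-type factor, averaged 195 ± 8.05 CPM in PP2-A5oe, 67.5 ± 3.26 CPM in pp2-a5 and 91.4 ± 4.32 CPM in Col-0. AT2G41640, with 3 annotated transcripts and an overlapping gene, averaged 44.7 ± 1.3 CPM in PP2-A5oe, 7.74 ± 0.541 CPM in pp2-a5 and 23.4 ± 2.44 CPM in Col-0. The peroxidase PRXCB, which makes apoplastic peroxide, averaged 183 ± 3.72 CPM in PP2-A5oe, 445 ± 20.19 CPM in pp2-a5 and 253 ± 32.1 CPM in Col-0. AT2G45220, a pectin methylesterase, averaged 18.6 ± 3.19 CPM in PP2-A5oe, 73.6 ± 5.35 CPM in pp2-a5 and 51.8 ± 5.44 CPM in Col-0. AT2G20670 averaged 31.6 ± 3.42 CPM in PP2-A5oe, 83.3 ± 3.76 CPM in pp2-a5 and 43.2 ± 1.82 CPM in Col-0. PS2, NIT2, NIA1 and QQS, given above, belong with them.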

How the data were processed

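Polyadenylated RNA of rosettes was counted in 9 libraries, 3 each of PP2-A5oe, pp2-a5 and Col-0. Per the labels' protocols, RNA was isolated on RNeasy columns, enriched on oligo(dT) beads and copied with random hexamers. The authors deposited raw counts per locus, made on TAIR10 per the submitters' processing notes. Not given in the sources used here are the aligner, the counter, the strand setting and the gene models. Counts of the 294 loci with 2 entries were summed (22449 entries, 22155 loci). Names and positions came from the TAIR10.1 annotation (RefSeq), which matched 21952 loci and left 203 unmatched.

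Loci were filtered with filterByExpr (minimum count 10, minimum total count 15), which kept 13975 loci with 99.76% of the counts. CPM values were computed here from the counts after TMM scaling. All 9 libraries entered 1 edgeR quasi-likelihood fit with group means and share 1 estimate of the spread (6 residual degrees of freedom, biological coefficient of variation 6.89%), and the contrast was PP2-A5oe minus pp2-a5. A gene counted as called when its p, adjusted by Benjamini-Hochberg, was under 0.05. An exact permutation test of 3 against 3 cannot go below p = 0.1. Exact binomial 95% intervals are given where a group held 3 counts or fewer and cover counting error only.

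The text names the 12 largest rises and falls among called genes that averaged 5 CPM or more in one of the lines and did not overlap, the 8 largest differences in CPM each way, up to 3 called members of each list by adjusted p (or, with none called, the 2 most abundant members), up to 6 genes each way with Col-0 between the lines, runs of neighbours and the PP2-A family; other genes were chosen after their values were seen. The comparison, the 52 lists and the genes shown were chosen with earlier results of these data known. Of 1405 list names, 33 were not matched. Motifs (12) were searched in the 250 bases before the gene start on both strands.

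Alternatives tried were DESeq2, limma-voom, RLE scaling, upper-quartile scaling, no filter and a stricter one (10 CPM in 3 libraries), the 6 libraries of the lines alone, the replicate number as a block, calls at an adjusted p under 0.01 or at 2-fold and more, tables without organelle genes, genes with 1 annotated transcript, separate entries, leaving out each library, and leaving out the 2 libraries with a high mitochondrial share. Tested on simulated counts of this comparison for 13975 genes, in which 50 genes each were changed, the calls held 22% of those changed 1.25-fold, 60% of those changed 1.5-fold, 92% of those changed 2-fold and 100% of those changed 4-fold, beside 12 unchanged genes. R 4.3.3, edgeR 4.0.16, limma 3.58.1, DESeq2 1.42.0, Python 3.11.15, pandas 2.3.3, numpy 2.4.6, scipy 1.17.1 and matplotlib 3.10.9 were used.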

Additional observations from a re-analysis of the deposited data

How the results depend on the processing

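Counts of called genes, 1007 higher and 762 lower in PP2-A5oe, stayed within 1.5 times under the scaling, filter, limma-voom, 6-library, organelle, transcript and entry alternatives. DESeq2 called 761 higher and 496 lower, an adjusted p under 0.01 left 695 and 479, and a 2-fold threshold 206 and 189, both by construction; the cause of the difference with DESeq2 was not tested. Leaving out each library gave 770 to 1177 higher and 555 to 984 lower. With the replicate number as a block, 908 were higher and 663 lower. Of 173 called genes followed singly over the settings, RBCS2B, PSAD-2, IAR3 and PP2-A10 were then not called (adjusted p = 0.0711, 0.05002, 0.0558 and 0.0618 by edgeR). In a check of pairing, same-numbered PP2-A5oe and pp2-a5 libraries correlated at -0.0411 to 0.042 (-0.18 to 0.0618 over all groups). These are not correlations of the levels, which reached 0.985 to 0.991 between replicates of a group. Such low values cannot exclude that same-numbered samples were handled together, and whether the numbers pair the samples is not described. Of the 173 called genes followed singly, 158 kept the call in every setting but the 2-fold one, 15 lost it in another, and none reversed. Further list members named in the text, such as ORA59, LOX6, LSU4 and ACS11, were not among the 173. The calls they lost are given with their lists. Of 2392 list counts over the settings, 237 moved by more than 1.5 times. In simulated counts of this depth and replication 22% of the smallest changes tried were recovered; depth was not varied on its own.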
